A study of Saccharomyces cerevisiae with 2 samples.

Results

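The genes described here are 10 members of the phosphate (PHO) response of budding yeast, taken by identifier from a table of 9633 transcripts that holds 5775 nuclear ORFs. They are the phosphate transporter genes *PHO84* and *PHO89*, the acid phosphatase genes *PHO5*, *PHO3*, *PHO11* and *PHO12*, the alkaline phosphatase gene *PHO8*, and *SPL2*, *VTC3* and *PHO81*. The study sequenced total RNA depleted of rRNA from 1 *xrn1*∆ *trf4*∆ culture and 1 *trf4*∆ culture. Both are BY4741 strains grown exponentially and without synchronization in YPD, a rich medium with glucose. The *xrn1*∆ *trf4*∆ strain lacks Xrn1p, the cytoplasmic 5′–3′ exoribonuclease, and Trf4p, which adds poly(A) tails within TRAMP, a nuclear complex of RNA decay. The *trf4*∆ strain lacks Trf4p alone, so that every difference below is set against a strain that already carries a nuclear decay defect. Each strain has 1 library, so no difference has a replicate check and no p-value is given, and the loss of Xrn1p cannot be told apart from chance variation between 2 cultures and their preparation.

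In the PHO pathway, the transcription factor Pho4p, together with Pho2p, drives transcription of genes that scavenge phosphate. When phosphate is plentiful, the cyclin-dependent kinase Pho85p with its cyclin Pho80p phosphorylates Pho4p and keeps it out of the nucleus. When phosphate runs short, Pho81p inhibits the kinase, Pho4p enters the nucleus, and high-affinity transporters and secreted phosphatases are made. At *PHO84*, transcription of the opposite strand is a textbook case of gene repression by an antisense RNA in cells with defective nuclear RNA decay.

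The values are the deposited read densities, in normalized reads per nucleotide, that is levels per length. Since only uniquely placed reads were counted, those of *PHO11* and *PHO12*, whose sequences are mostly shared, are not comparable with the other genes. Multiplied by gene length, they gave whole reads within 0.01 for 99.4% of ORFs with a length, all 10 members among them, with 1 read worth 0.626 in *xrn1*∆ *trf4*∆ after the authors' normalization. The members had between 30 and 53983 reads in *xrn1*∆ *trf4*∆ and between 78 and 22446 reads in *trf4*∆. Intervals below are exact 95% intervals of these reads, Poisson for a level and Clopper-Pearson for a ratio, and cover counting error only. The labels were checked first. *TRF4* had 1 read in *xrn1*∆ *trf4*∆ and 0 in *trf4*∆, for which a count of 0 allows a density of up to 0.00171 (3 reads), and *XRN1* had 111 reads in *xrn1*∆ *trf4*∆ and 7272 in *trf4*∆. *LEU2*, *MET17* and *URA3*, which BY4741 lacks, were at 0 in both libraries, and *HIS3*, of which BY4741 carries a partial deletion, had 1050 reads in *xrn1*∆ *trf4*∆ and 353 in *trf4*∆. Of the mating-type genes, the **a**-specific *STE2* had 14158 reads in *xrn1*∆ *trf4*∆ and 4425 in *trf4*∆, while the α-specific *STE3* had 54 in *xrn1*∆ *trf4*∆ and 99 in *trf4*∆.

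The PHO genes spanned a wide range of levels in the same cells. Density differed 1432-fold between the highest and the lowest member in *xrn1*∆ *trf4*∆ and 229-fold in *trf4*∆. Both values rest on *PHO11*. Reads were also divided by the start positions that are unique in the genome with exact matching, in place of the gene length. The range was then 167-fold in *xrn1*∆ *trf4*∆ and 76.2-fold in *trf4*∆. In each library 7 of the 10 genes lay above the median ORF in density, and *PHO81*, *PHO11* and *PHO12* lay below it. In *trf4*∆ this count depends on the measure. Per unique position *PHO11* and *PHO12* stood there at 0.491 and 0.566, above the 0.250 of *PHO4*, an ORF at the 50.2th percentile of density. In *xrn1*∆ *trf4*∆ they stood at 0.118 and 0.119, below the 0.481 of *VTC2*, an ORF at the 50.1th percentile. *PHO84* headed the order of densities in both libraries, followed by *PHO3*, *SPL2*, *PHO8*, *VTC3*, *PHO89*, *PHO5*, *PHO81*, *PHO12* and *PHO11* in *xrn1*∆ *trf4*∆. In *trf4*∆ the order was *PHO84*, *VTC3*, *PHO8*, *PHO89*, *PHO3*, *PHO5*, *SPL2*, *PHO81*, *PHO12* and *PHO11*. Per position unique with exact matching the order in *xrn1*∆ *trf4*∆ was the same. In *trf4*∆ *PHO12* and *PHO11* then stood between *PHO5* and *SPL2*, and *PHO81* was lowest. With the up to 3 mismatches allowed in alignment, only 60.1% of *PHO5* and 65.9% of *PHO3* positions are unique. The order on that measure was not computed, so the places of *PHO5* and *PHO3* are uncertain. *PHO12* and *PHO11* were the only neighbours in the orders of densities whose counting intervals overlapped, in either library. The intervals do not cover positions lost to shared sequence, which concern *PHO3* and *PHO5* as well. In the orders of densities *SPL2* stood above *PHO8*, *VTC3*, *PHO89* and *PHO5* in *xrn1*∆ *trf4*∆ and below all of them in *trf4*∆. Summed, the 10 genes held 0.664% of the recovered ORF reads in *xrn1*∆ *trf4*∆ and 0.517% in *trf4*∆, and *PHO84* by itself made up 67.1% of these member reads in *xrn1*∆ *trf4*∆ and 58.2% in *trf4*∆.

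**Figure D1:**
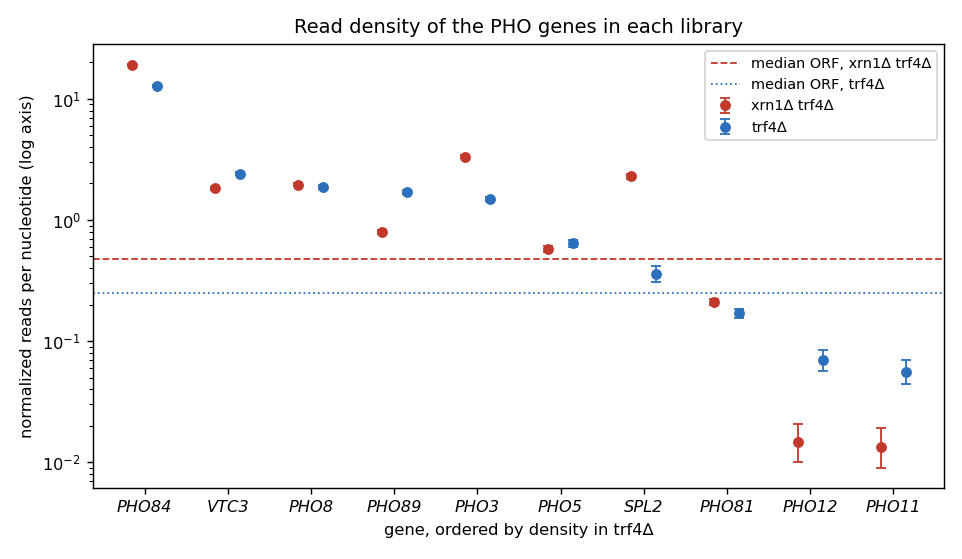
Normalized reads per nucleotide (log axis) of each PHO gene in *xrn1*∆ *trf4*∆ (red) and *trf4*∆ (blue). Points are single libraries, bars are exact Poisson 95% intervals of the reads, and lines mark the median ORF of each library. *PHO84* lies highest, at 19.2 in *xrn1*∆ *trf4*∆ and 12.7 in *trf4*∆, and *PHO11* and *PHO12* lie below 0.1 in both.

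Between the libraries the members moved apart. On a log2 scale, the density in *xrn1*∆ *trf4*∆ over that in *trf4*∆ gave a ratio above 0 for 5 members and below 0 for the other 5. Of the 5638 ORFs detected in each library, 82.0% had a ratio above 0 and 18.0% a ratio below 0. A ratio of 1 or more on the log2 scale, that is at least 2-fold higher, was seen for 2 members, *SPL2* and *PHO3*, against 40.1% of ORFs. A ratio of -1 or less was seen for 3 members, *PHO89*, *PHO11* and *PHO12*, against 2.63% of ORFs. The median over the 10 members was -0.05, with a range of -2.25 to 2.68, and the ORF median was 0.78. *PHO11* and *PHO12* are near-identical copies and are not separate observations; without them the median of the other 8 was 0.18. Relative to the ORF median, 1 member (*SPL2*) lay 1 or more above it, against 10.8% of ORFs, and 4 members (*VTC3*, *PHO89*, *PHO11* and *PHO12*) lay 1 or more below it, against 12.3%. The ratio itself was above the ORF median for *SPL2* and *PHO3* and below it for the other 8. By construction, 2819 ORFs lie on each side.

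**Figure D2:**
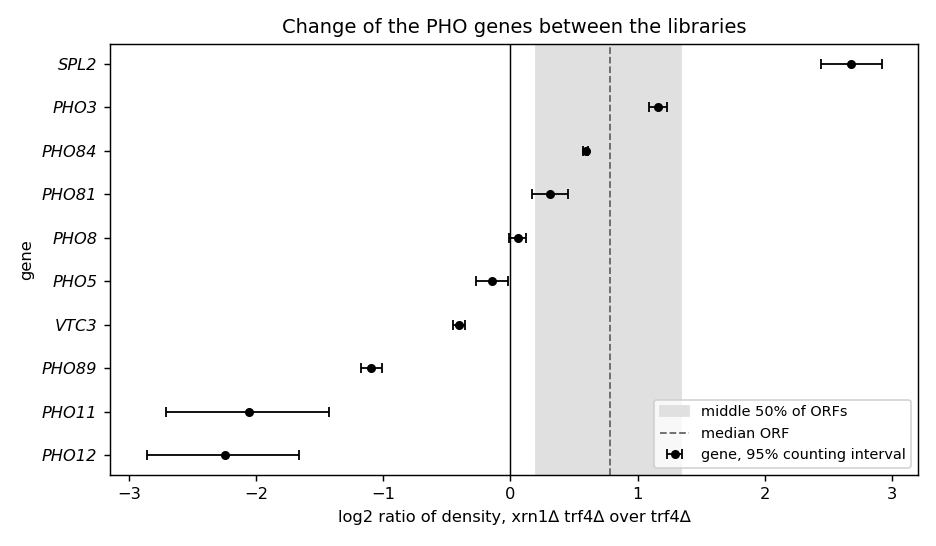
Log2 ratio of density, *xrn1*∆ *trf4*∆ over *trf4*∆, for each PHO gene, with exact Clopper-Pearson 95% intervals of the reads. The grey band holds the middle 50% of ORFs and the dashed line the median ORF at 0.78. *SPL2* lies to the right of the band at 2.68, and *PHO8*, *PHO5*, *VTC3*, *PHO89*, *PHO11* and *PHO12* lie to its left.

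The directions depend on the scale set between the libraries. When the median ORF density is set equal in both libraries, -0.94 is added to every log2 ratio, and a mean trimmed by 30% at each end adds -0.78. Under either *SPL2* and *PHO3* alone stayed higher in *xrn1*∆ *trf4*∆, while *PHO84*, *PHO81* and *PHO8* changed to lower. Differences between members do not depend on the scale. The ratio also varied with density across ORFs, here cut into 10 groups of equal size by mean log2 density. Its median was 1.07 in the group that holds *PHO81* and -0.07 in the highest group, which holds *PHO84*, *PHO3* and *VTC3*. Set against the median of the own density group, the log2 ratio was higher for 3 members, *SPL2* (by 2.11), *PHO3* (by 1.23) and *PHO84* (by 0.66), where 50% of ORFs lie above by construction.

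**Figure D3:**
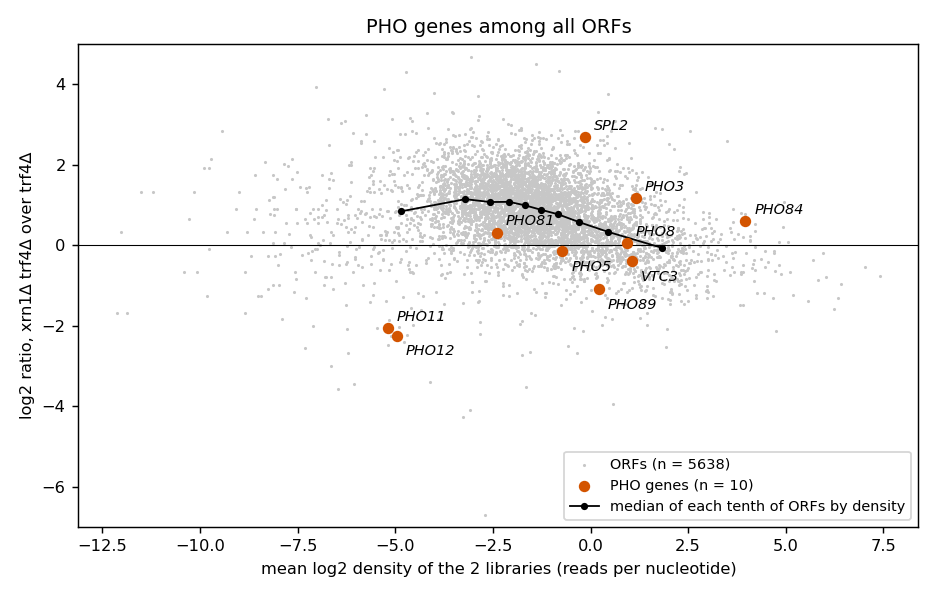
Log2 ratio of density, *xrn1*∆ *trf4*∆ over *trf4*∆, against the mean log2 density of both libraries, for 5638 ORFs (grey) and the 10 PHO genes (orange). The black line joins the medians of 10 groups of ORFs by density and falls to -0.07 at the right. *SPL2*, *PHO3* and *PHO84* lie above this line and the other 7 genes below it.

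The upstream sequences were read next, since Pho4p is known to bind a short E-box, CACGTG, and more weakly CACGTT. The 500 nt before each start codon were searched in the RefSeq R64 genome for CACGTG, which reads the same on both strands, and for CACGTT on both strands. The motifs differ in 1 base, so that no stretch can match both at the same position. CACGTG was present upstream of 8 of the 10 members, 13 times in all, and upstream of 6.36% of 5768 ORFs with a full window. CACGTT was present upstream of 8 members and of 925 of these ORFs. At least 1 of the motifs was present for 9 members and 21.1% of ORFs. *PHO3* had neither motif in this window, and *PHO8* had CACGTT alone. *SPL2* had 4 copies of CACGTG and was the 1 ORF among the 5768 with 4 or more. Other factors, such as Cbf1p, are known to bind the same letters, and windows can reach into a neighbouring gene, so a match is a description of the sequence and not of binding. The 26-base windows around the 13 CACGTG matches are shown because 8 of the members share this feature. They run 5′ to 3′ on the strand of the gene, with the motif in capitals and its distance to the start codon.
*PHO84*, 436 nt before, chrXIII:26221-26246, minus strand: ttaatagttcCACGTGgacgtgttat
*PHO84*, 414 nt before, chrXIII:26199-26224, minus strand: ttatttccagCACGTGgggcggaaat
*PHO89*, 323 nt before, chrII:798830-798855, minus strand: gacaatgcagCACGTGggagacaaat
*PHO5*, 253 nt before, chrII:431189-431214, minus strand: ttggcactcaCACGTGggactagcac
*PHO11*, 283 nt before, chrI:225167-225192, plus strand: ttggcgttcaCACGTGggtttaaaaa
*PHO12*, 283 nt before, chrVIII:551806-551831, plus strand: ttggcgttcaCACGTGggtttaaaaa
*SPL2*, 361 nt before, chrVIII:375446-375471, minus strand: tatttttgctCACGTGaccgacaagg
*SPL2*, 147 nt before, chrVIII:375232-375257, minus strand: atgatgtacgCACGTGggcgaaagtt
*SPL2*, 90 nt before, chrVIII:375175-375200, minus strand: tctcttttccCACGTGctccgctctc
*SPL2*, 31 nt before, chrVIII:375116-375141, minus strand: tcactgcagcCACGTGcctagatcta
*VTC3*, 345 nt before, chrXVI:517348-517373, minus strand: tgcgagggccCACGTGgcttaataca
*VTC3*, 311 nt before, chrXVI:517314-517339, minus strand: cagtcgcaagCACGTGcatgcgattt
*PHO81*, 344 nt before, chrVII:958539-958564, minus strand: ggtgttatggCACGTGcgaataaggg

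In the deposited densities, the members with CACGTG upstream did not share a direction between the libraries. Higher were *SPL2*, with the highest ratio (2.68), *PHO84* (0.59) and *PHO81* (0.31). Lower were *PHO5* (-0.15), *VTC3* (-0.41) and *PHO89*, *PHO11* and *PHO12*, the 3 members with the lowest ratios. With the median ORF density or the trimmed mean as scale, *PHO84* and *PHO81* changed to lower, and only *SPL2* of these members stayed higher. The window in *PHO11* and *PHO12* is the same 26 bases. The upstream region of *PHO5* is the classical model of a promoter opened by Pho4p, and its stretch from 400 to 221 nt before the start codon holds both motifs, CACGTT at 362 nt and CACGTG at 253 nt, in capitals (chrII:431172-431351 of R64, minus strand).
*PHO5* upstream: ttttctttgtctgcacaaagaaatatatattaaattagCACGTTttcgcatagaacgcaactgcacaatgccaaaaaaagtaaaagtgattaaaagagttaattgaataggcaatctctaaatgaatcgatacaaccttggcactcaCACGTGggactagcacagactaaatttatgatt

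**Figure D4:**
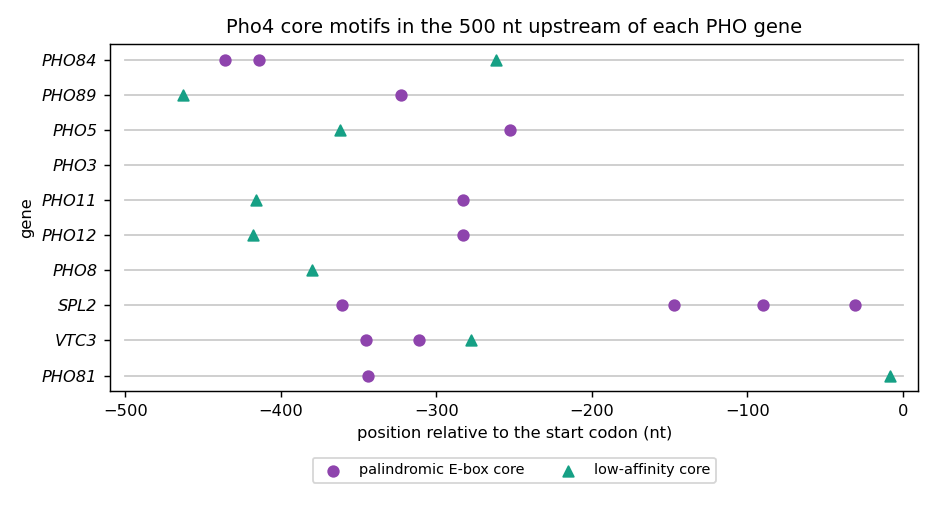
Position relative to the start codon, in nt, of CACGTG (circles, named palindromic E-box core) and CACGTT (triangles, named low-affinity core) in the 500 nt upstream of each PHO gene. *SPL2* carries 4 circles, *PHO3* carries no mark and *PHO8* carries 1 triangle.

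In the deposited densities the 2 transporter genes moved in opposite directions. With the median ORF density or the trimmed mean as scale, *PHO84* was lower in *xrn1*∆ *trf4*∆ as well (log2 ratios of -0.35 and -0.19). *PHO84* (YML123C, chromosome XIII of R64, 24037 to 25800, minus strand) encodes the high-affinity proton-coupled phosphate transporter of the plasma membrane. Its density was 19.2 in *xrn1*∆ *trf4*∆ (53983 reads) and 12.7 in *trf4*∆ (22446 reads), which placed it 29th among the 5775 ORFs in *xrn1*∆ *trf4*∆ and 59th in *trf4*∆. The log2 ratio was 0.59 (95% interval 0.57 to 0.61), below the ORF median yet above the 0.43 that marks the upper quartile of ORFs of similar density. R64 annotates an antisense RNA, YNCM0001W, on the plus strand from 23564 to 26578, which spans the whole of *PHO84*. Subtelomeric RNAs of these libraries are described by strand, but whether strand was used in the ORF densities is not stated, so antisense reads may be included in the value of *PHO84*. The antisense RNA is not analysed here. *PHO89* (YBR296C, chromosome II, 796798 to 798522, minus strand) encodes the sodium-coupled phosphate transporter, which works at alkaline pH. Its density was 0.794 in *xrn1*∆ *trf4*∆ and 1.70 in *trf4*∆, a log2 ratio of -1.09 (-1.17 to -1.01) at the 2.36th percentile of ORFs. *PHO84* density was 24.1 times that of *PHO89* in *xrn1*∆ *trf4*∆ (23.1 to 25.2) and 7.50 times in *trf4*∆ (7.22 to 7.80), a comparison within each library that no scaling alters.

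The acid phosphatase genes encode secreted enzymes that release phosphate from organic esters outside the cell, and their reads are partly shared by sequence. All 4 coding sequences are 1404 nt long. *PHO5* and *PHO3* are tandem neighbours on chromosome II, 446 nt apart, and are 86.5% identical. *PHO5* and *PHO11* are 83.6% identical. *PHO11* and *PHO12* lie near the ends of different chromosomes, 3355 and 9141 nt from the end of R64, and differ at 4 of 1404 positions. Counted from 1 at the A of the start codon, with the *PHO11* base first, the differences are A273G, A1060C, C1245T and A1268G. The stretch from 1231 to 1290 is shown because it holds the last 2 of them, in capitals, and a read can be placed in either gene only where it covers such a base.
*PHO11*: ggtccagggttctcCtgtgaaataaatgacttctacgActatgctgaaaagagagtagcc
*PHO12*: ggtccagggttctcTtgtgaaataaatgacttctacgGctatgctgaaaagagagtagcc
The first 90 coding bases of *PHO5* and *PHO3* are shown for contrast, with the 18 differences in capitals.
*PHO5*: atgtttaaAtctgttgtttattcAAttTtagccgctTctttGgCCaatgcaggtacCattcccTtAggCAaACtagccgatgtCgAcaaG
*PHO3*: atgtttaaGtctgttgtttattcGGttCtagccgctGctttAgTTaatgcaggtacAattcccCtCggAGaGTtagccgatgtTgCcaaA

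Of the 1355 positions at which a 50-nt sequence can start, 1188 in *PHO5* (87.7%), 1237 in *PHO3* (91.3%), 159 in *PHO11* (11.7%) and 173 in *PHO12* (12.8%) give a sequence found once in the R64 genome on either strand. With up to 3 mismatches, the number allowed in alignment, 60.1% of *PHO5*, 65.9% of *PHO3* and 0 positions of *PHO11* and *PHO12* stay unique. The other 6 members were unique at every position with exact matching, and *PHO81* at 99.5% with up to 3 mismatches. Only reads with a unique position were counted, so the levels of *PHO11* and *PHO12* are uncertain.

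*PHO5* (YBR093C, chromosome II, 429548 to 430951, minus strand), the main repressible acid phosphatase, had a density of 0.578 in *xrn1*∆ *trf4*∆ (1295 reads) and 0.640 in *trf4*∆ (898 reads). Its log2 ratio was -0.15 (-0.27 to -0.02), close to no change under the authors' normalization and 0.93 below the ORF median. *PHO3* (YBR092C, chromosome II, 427698 to 429101, minus strand) is the constitutive acid phosphatase and is known to be repressed by thiamine rather than phosphate. Its density was 3.34 in *xrn1*∆ *trf4*∆ (7483 reads) and 1.49 in *trf4*∆ (2097 reads), a log2 ratio of 1.16 (1.09 to 1.23). The tandem pair thus moved apart, with *PHO3* density 5.78 times that of *PHO5* in *xrn1*∆ *trf4*∆ (5.45 to 6.13) and 2.34 times in *trf4*∆ (2.16 to 2.53). Both of these values use the full gene length. They are somewhat too high, because a smaller share of *PHO5* than of *PHO3* is unique, which the intervals do not cover.

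*PHO11* (YAR071W, chromosome I, 225460 to 226863, plus strand) and *PHO12* (YHR215W, chromosome VIII, 552099 to 553502, plus strand) are repressible acid phosphatases like *PHO5*. *PHO11* had 30 reads in *xrn1*∆ *trf4*∆ (density 0.0134) and 78 in *trf4*∆ (density 0.0556). *PHO12* had 33 reads in *xrn1*∆ *trf4*∆ (density 0.0147) and 98 in *trf4*∆ (density 0.0698). The log2 ratios were -2.05 (-2.71 to -1.43) for *PHO11* and -2.25 (-2.86 to -1.66) for *PHO12*, at the 0.514th and 0.355th percentile of ORFs. Taken as 1 locus, the pair had 63 reads in *xrn1*∆ *trf4*∆ and 176 in *trf4*∆, a log2 ratio of -2.16 (-2.60 to -1.73). These ratios rest on few reads and shrink to -0.46 and -0.57 with a pseudocount of 0.1, which exceeds their densities. Divided by the positions unique with exact matching in place of the gene length, the level of *PHO11* was 0.118 in *xrn1*∆ *trf4*∆ and 0.491 in *trf4*∆, and that of *PHO12* was 0.119 in *xrn1*∆ *trf4*∆ and 0.566 in *trf4*∆. The same measure for *PHO5* was 0.683 in *xrn1*∆ *trf4*∆ and 0.756 in *trf4*∆.

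*PHO8* and *VTC3* act at the vacuole, the phosphate store of the yeast cell, and had ratios near or below 0. *PHO8* (YDR481C, chromosome IV, 1418550 to 1420250, minus strand), the vacuolar alkaline phosphatase, had a density of 1.95 in *xrn1*∆ *trf4*∆ (5300 reads) and 1.88 in *trf4*∆ (3194 reads). Its log2 ratio of 0.06 (-0.01 to 0.12) was the 1 member ratio whose counting interval held 0 under the authors' normalization. *VTC3* (YPL019C, chromosome XVI, 514511 to 517018, minus strand) encodes a subunit of the vacuolar transporter chaperone complex, which makes polyphosphate. Its density was 1.82 in *xrn1*∆ *trf4*∆ (7291 reads) and 2.41 in *trf4*∆ (6049 reads), a log2 ratio of -0.41 (-0.46 to -0.36).

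In the deposited densities, the regulators *SPL2* and *PHO81* were both higher in *xrn1*∆ *trf4*∆, by very different amounts. Spl2p restrains low-affinity phosphate uptake through Pho87p. *SPL2* (YHR136C, chromosome VIII, 374654 to 375100, minus strand), at 447 nt the shortest member, had a density of 2.30 in *xrn1*∆ *trf4*∆ (1644 reads) and 0.360 in *trf4*∆ (161 reads). The density was 6.39-fold higher in *xrn1*∆ *trf4*∆, a log2 ratio of 2.68 (2.44 to 2.92) at the 98.8th percentile of ORFs. *SPL2* stayed higher under every scaling tried, with a lowest log2 ratio of 1.73. *PHO84* density was 8.32 times that of *SPL2* in *xrn1*∆ *trf4*∆ (7.92 to 8.74) and 35.3 times in *trf4*∆ (30.3 to 41.5). Pho81p is the inhibitor of Pho80p–Pho85p. *PHO81* (YGR233C, chromosome VII, 954674 to 958210, minus strand) had a density of 0.210 in *xrn1*∆ *trf4*∆ (1186 reads) and 0.169 in *trf4*∆ (599 reads), and lay below the median ORF in both. Its log2 ratio was 0.31 (0.17 to 0.45), below the lower quartile of 0.56 of ORFs of similar density.

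The genes beside the members were read as well, to describe the regions in which the members lie. No other protein-coding gene of R64 overlaps a member. Of the 15 ORFs next to a member that are not members themselves and have a ratio, 10 were higher in *xrn1*∆ *trf4*∆ and 5 lower, against 82.0% and 18.0% of all ORFs. Their median log2 ratio was 0.22, with a range of -2.51 to 2.59, where the ORF median was 0.78. The following neighbours were chosen after their values were seen. *ARO9*, an aromatic aminotransferase gene that starts 608 nt from *SPL2* on the opposite strand and shares its upstream region, had 4990 reads in *xrn1*∆ *trf4*∆ and 580 in *trf4*∆, a log2 ratio of 2.43 (2.31 to 2.56) next to the 2.68 of *SPL2*. *YCK1*, on the other side of *SPL2*, had a log2 ratio of 0.74 (0.65 to 0.84), close to the ORF median. *IMD2*, a gene of guanine nucleotide synthesis 893 nt downstream of *PHO12*, had 701 reads in *xrn1*∆ *trf4*∆ and 2492 in *trf4*∆, a log2 ratio of -2.51 (-2.63 to -2.38). On the other side of *PHO12*, YHR214C-E had 7 reads in *xrn1*∆ *trf4*∆ and 16 in *trf4*∆ and a log2 ratio of -1.87 (-3.39 to -0.51), so both neighbours of *PHO12* were lower as well. *TYC1*, 1600 nt from *PHO89*, had 14 reads in *xrn1*∆ *trf4*∆ and 33 in *trf4*∆ and a log2 ratio of -1.91 (-2.93 to -0.97), while *PCA1* on the other side of *PHO89* had 0.21 (0.13 to 0.28). *TIM12*, 213 nt from *PHO3*, had 885 reads in *xrn1*∆ *trf4*∆ and 114 in *trf4*∆, a log2 ratio of 2.28. *DIG2*, 179 nt from *PHO8*, had 549 reads in *xrn1*∆ *trf4*∆ and 57 in *trf4*∆, a log2 ratio of 2.59 (2.20 to 3.01), the highest of the 15, beside 0.06 for *PHO8*. Whether these neighbours and the members change together was not tested.

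Other genes of phosphate metabolism, from a list of 28, had a median log2 ratio nearer to the ORF median than the members had. The median of the members was -0.05, or 0.18 without *PHO11* and *PHO12*. Whether the lists differ was not tested. Of the 28 genes, 22 were higher in *xrn1*∆ *trf4*∆ and 6 lower, against 82.0% of ORFs higher. A log2 ratio of 1 or more was found for 9 and of -1 or less for 0, against 40.1% and 2.63% of ORFs. The median was 0.42, with a range of -0.55 to 2.42, and 17 of the 28 lay below the ORF median of 0.78. With the median ORF density or the trimmed mean as scale the median of the list turned negative (-0.52 and -0.36).

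Of *PHO4* and the genes whose products act with or on Pho4p, *PHO2*, *PHO4* and *PHO80* lay above the ORF median and *PHO85* below it. *PHO2*, the homeodomain partner of Pho4p, had a density of 0.669 in *xrn1*∆ *trf4*∆ and 0.125 in *trf4*∆, a log2 ratio of 2.42 (2.21 to 2.63). *PHO4* itself had 0.836 in *xrn1*∆ *trf4*∆ and 0.250 in *trf4*∆, a log2 ratio of 1.74 (1.54 to 1.95). The cyclin gene *PHO80* had 0.976 in *xrn1*∆ *trf4*∆ and 0.296 in *trf4*∆, a log2 ratio of 1.72 (1.53 to 1.92), whereas the kinase gene *PHO85* had 0.328 in *xrn1*∆ *trf4*∆ and 0.216 in *trf4*∆, a log2 ratio of 0.60 (0.37 to 0.84), below the ORF median. Under every scaling tried *PHO2*, *PHO4* and *PHO80* stayed higher in *xrn1*∆ *trf4*∆, while *PHO85* changed to -0.34 and -0.18 under the shifts of -0.94 and -0.78. The inositol pyrophosphate kinase genes *KCS1* and *VIP1*, whose products signal phosphate status, had log2 ratios of 0.75 and 0.37.

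Low-affinity transport and polyphosphate genes were spread over both directions. *PHO87*, a low-affinity transporter that Spl2p restrains, had a density of 0.854 in *xrn1*∆ *trf4*∆ and 0.381 in *trf4*∆, a log2 ratio of 1.16 (1.07 to 1.26). Its paralog *PHO90* had 0.852 in *xrn1*∆ *trf4*∆ and 0.941 in *trf4*∆, a log2 ratio of -0.14, and the vacuolar transporter gene *PHO91* had 0.263 in *xrn1*∆ *trf4*∆ and 0.296 in *trf4*∆, a log2 ratio of -0.17. Within the VTC complex, the catalytic subunit gene *VTC4* had a log2 ratio of -0.48 (-0.52 to -0.44), close to the -0.41 of *VTC3*, and *VTC2* had -0.22, while *VTC1* had 0.29 and *VTC5* 1.34. *VTC1* was the most abundant of the 5, with a density of 9.62 in *xrn1*∆ *trf4*∆ and 7.85 in *trf4*∆. Of the 28 genes, 1 lay 1 or more above the ORF median, where 10.8% of ORFs did, and 4 lay 1 or more below it, where 12.3% of ORFs did. These 4 were *VTC4*, *VTC2*, *GDE1*, a glycerophosphodiesterase gene (-0.55), and *PHO88* (-0.26), named *SND3* in R64, whose product serves protein targeting to the endoplasmic reticulum.

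**Figure D5:**
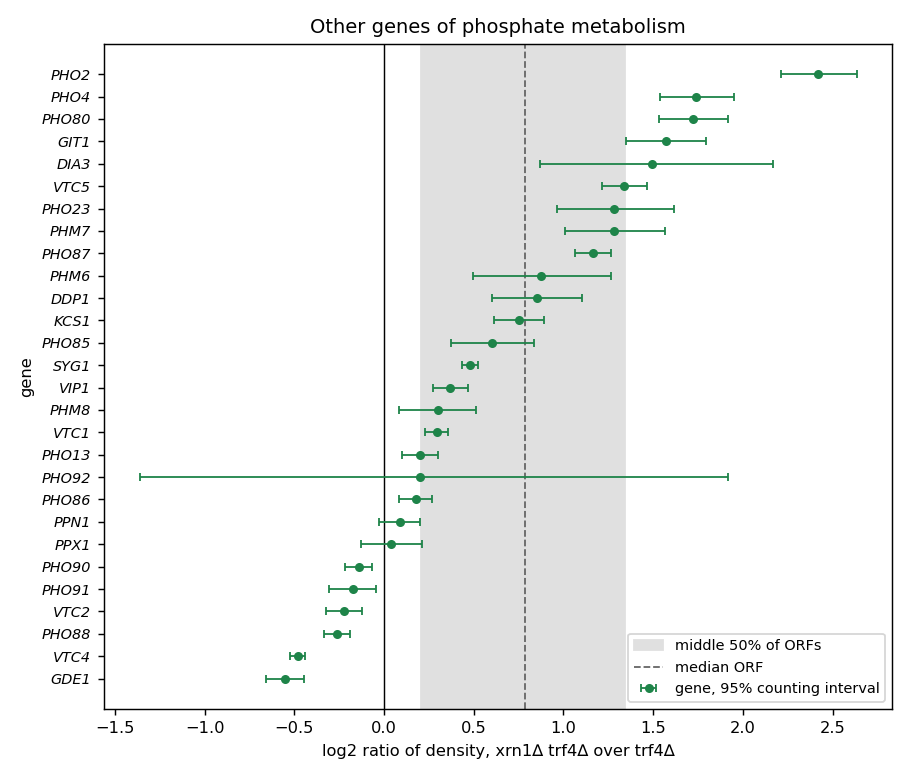
Log2 ratio of density, *xrn1*∆ *trf4*∆ over *trf4*∆, for 28 other genes of phosphate metabolism, with exact Clopper-Pearson 95% intervals of the reads. The grey band holds the middle 50% of ORFs and the dashed line their median. *PHO2* (2.42), *PHO4* (1.74) and *PHO80* (1.72) head the list, and *GDE1* (-0.55) and *VTC4* (-0.48) end it.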

How the data were processed

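Libraries were made by the authors from rRNA-depleted total RNA and sequenced as 50-nt SOLiD reads, which were aligned to the S288c genome with Bowtie 0.12.7 allowing up to 3 mismatches. The values the authors deposited are a coverage signal, the density of uniquely placed reads per nucleotide of a transcript, scaled between libraries by their ORF reads. The release of the annotation, and whether strand was used in counting over ORFs, are not given in the sources used here.

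Densities were multiplied by gene lengths of the RefSeq R64 assembly (5770 of 5775 ORFs matched by identifier), which recovered whole reads for 5738 ORFs, 12121664 in *xrn1*∆ *trf4*∆ and 7455598 in *trf4*∆, with medians of 978.5 and 316 per ORF. Sequences, names and coordinates are from the same assembly. Log2 ratios carry no pseudocount. Intervals are exact and cover counting error only, since reads without molecular identifiers are not independent molecules.

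The members and gene lists were chosen with earlier results of these data known. Named were all members, the regulators, transporters, VTC genes and inositol pyrophosphate kinase genes of the list of 28, any other of the 28 at 1 or more from the ORF median, and of a thiamine list *THI4* and both extremes. Genes beside the members were outside this rule and were named after their values were seen. Other settings tried were 3 scalings between libraries, a minimum mean density of 0.05, a pseudocount of 0.01 or 0.1, means for medians, and leaving out members. Functions were tested on simulated data. Statistics were computed with SciPy 1.17.1 and NumPy 2.4.6, tables with pandas 2.3.3 under Python 3.11.15, and plots with matplotlib 3.10.9. Both value columns were used.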

Additional observations from a re-analysis of the deposited data

How the results depend on the processing

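No paired analysis was possible because each strain has 1 library. Division by the median ORF density left 2 members higher, 1 at least 2-fold higher and 5 at least 2-fold lower, and changed the log2 ratios of *PHO84* to -0.35 and of *PHO81* to -0.63. The trimmed mean left 2 members higher, 1 at least 2-fold higher and 4 at least 2-fold lower, where the deposited densities gave 3 at least 2-fold lower. It gave -0.19 for *PHO84* and -0.47 for *PHO81*. The median of the list of 28 reversed to -0.52 and -0.36 under these scalings, and that of the members moved to -0.99 and -0.83, against -0.05 in the deposited densities. Equal sums of ORF densities shift every log2 ratio by -0.08, and the count of higher members was then 4. With a pseudocount of 0.1, or a mean density of at least 0.05, which removes *PHO11* and *PHO12*, 1 member was at least 2-fold lower. Against the median of ORFs of similar density, an alternative chosen after seeing the data, 3 members were higher. Depth limits *PHO11* and *PHO12* above all, with 30 to 98 reads per library, and with 1 library per strain no spread between cultures is known.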

Other observations

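Because *PHO3* is known to be repressed by thiamine, a list of 15 genes of thiamine synthesis, uptake and regulation was read beside it. Of these, 11 were higher in *xrn1*∆ *trf4*∆ and 4 lower, against 82.0% and 18.0% of ORFs, and the list median of 1.007 on the log2 scale compares with 0.78 for all ORFs. The counts include the near-identical copies *THI5*, *THI11*, *THI12* and *THI13*, which are not separate observations. Each had at most 28 reads per library and a counting interval that held 0. Of the 15, 8 had a log2 ratio of at least 1, against 40.1% of ORFs. *THI4*, the abundant thiazole synthesis gene of cells short of thiamine, had 128 reads in *xrn1*∆ *trf4*∆ and 106 in *trf4*∆, a log2 ratio of -0.40 against the 1.16 of *PHO3*. The highest ratio was that of *THI21* (1.77), a gene of pyrimidine precursor synthesis. The lowest, -1.68 for *THI5*, rests on 2 reads in *xrn1*∆ *trf4*∆ and 4 in *trf4*∆, with a counting interval of -5.14 to 1.13, and *THI5* has near-identical copies in *THI11*, *THI12* and *THI13*.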
